A study of Drosophila melanogaster with 27 samples.

Results

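Adult Drosophila melanogaster females that carried 1 copy of chromosome 4 (haplo 4th, 3 arrays) were compared with females that carried 2 copies (wild type, 3 arrays). These 6 arrays belong to a set of 27 Affymetrix Drosophila Genome 2 arrays that covers 9 genotypes with 3 biological replicates each, and they were chosen by their labels alone. Every replicate was total RNA of 10 whole females in their first day as adults, reared at one temperature. The haplo 4th females came from a cross of the wild type strain with C(4)RM sv spa-pol/0 flies, a stock in which both copies of chromosome 4 are joined into a compound, and the wild type females were of the strain y1 w67c23 itself. Copy number and cross therefore cannot be told apart in this comparison. For that reason 5 other groups were set beside it. Df(2L)J-H/+ haplo 4th females had the same compound parent and 1 copy of chromosome 4 and were compared with Df(2L)J-H/+ females, which had 2 copies and an Oregon R parent. Df(2L)ED4651/+ and Df(3L)4470/+ females had 2 copies and an Oregon R parent. Dp(2;2)Cam3/+ triplo 4th females had the compound parent and 3 copies, and they also carried a duplication of part of 2L. The arrays labelled pof-mutant and pof-mutant triplo 4th entered the estimate of the spread, and levels of the pof-mutant group are given for a few genes. The Pof probe set stood 2.01 above wild type on the log2 scale in the arrays labelled pof-mutant, so their label was not borne out by it.

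Chromosome 4 is the smallest chromosome of Drosophila and consists largely of heterochromatin. Its genes are nevertheless expressed, and the protein POF binds them along the chromosome and raises their output. Flies with a single chromosome 4 survive, grow slowly and have the thin bristles of the Minute class, whereas loss of 1 copy of a larger autosome is lethal. The question was how far the genes that lost a copy departed from wild type, and which genes with 2 copies elsewhere moved with them.

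Values are log2 levels after the arrays were brought to the same mean, and a difference of 1 on that scale is 2-fold. A gene counted as expressed when its wild type mean exceeded 6, which held for 7380 of 11899 genes, and for 50 of the 65 measured genes of chromosome 4. A gene was called when its limma adjusted p was under 0.05. The 3 haplo 4th arrays correlated with each other at 0.980 to 0.984 over expressed genes and the 3 wild type arrays at 0.955 to 0.980, whereas pairs across the groups gave 0.904 to 0.947. One difference between the groups touched many later values. An ovary score, the mean log2 level of 44 germline and eggshell genes, was 7.43, 8.07 and 7.69 in the haplo 4th arrays and 8.76, 8.46 and 9.87 in the wild type arrays, without overlap. In these whole-body samples a smaller ovary and less RNA per ovarian cell cannot be told apart. Age within the first day, which is not given for single arrays, cannot be separated from them either. Genes of the male accessory gland and testis were below the level of expression in wild type for all but 1 (Mst85C) of 40 measured genes.

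The genes that lost a copy stood lower as a group, and their mean ratio was smaller in size than the step of 1 that 1 copy in place of 2 would give. The mean log2 level of the 50 expressed chromosome 4 genes, relative to the wild type mean, was −0.47, −0.71 and −0.50 in the haplo 4th arrays and −0.03, 0.17 and −0.14 in the wild type arrays. Every haplo 4th array lay below every wild type array. The mean ratio was −0.56, and single haplo 4th arrays stood at 61.0% to 72.0% of the wild type mean. With 3 arrays against 3 the exact two-sided permutation test gave p = 0.1, the smallest p that this design allows. When the ovary score entered the fit as a covariate, a step chosen once the data had been seen, the mean was −0.75.

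Single genes of chromosome 4 spread widely around that mean. Of the 50 genes, 9 stood below −1, 19 between −1 and −0.5, 17 between −0.5 and 0, and 5 above 0. The test called 15 lower (30%), against 1.41% called lower among all expressed genes, and called 0 higher. The haplo 4th arrays did not overlap the wild type arrays for 33 genes that lay below and for 2 that lay above, and over all expressed genes 25.7% lay wholly below, 22.3% wholly above and 48% either way. The 95% limma interval held −1 and not 0 for 25 genes, 0 and not −1 for 10, both for 12, and neither for 3. Precision differed between them, with a median SE of 0.168 among the called genes and 0.358 among the rest. The ratio of a gene was only weakly related to its place on the chromosome (r = −0.11 with gene order over the 50 genes) and to its length (r = −0.16). Genes share arrays and are not independent replicates, so these coefficients are descriptions.

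**Figure D1:**
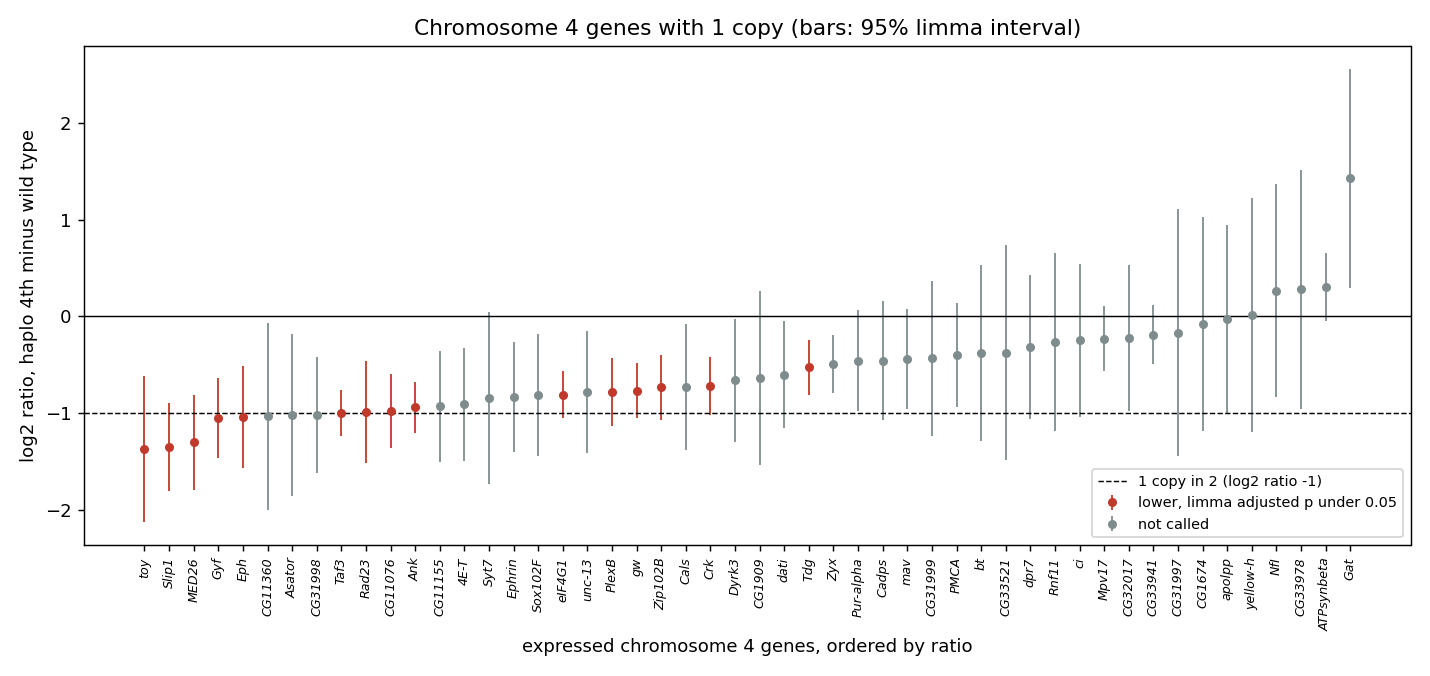
Log2 ratio of haplo 4th over wild type (vertical axis) for each of the 50 expressed genes of chromosome 4, ordered by ratio, with 95% limma intervals as bars and the step of 1 copy in 2 as a dashed line at −1. The 15 called genes (red) ran between −1.37 and −0.53, and Gat stood alone at the high end with 1.43.

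Transcriptional regulators of chromosome 4 included its lowest gene. Of 7 expressed regulators, 2 fell and the median ratio was −0.60, against −0.02 over all expressed genes. The eye selector gene toy, a Pax6 homologue, measured 6.54, 5.96 and 6.16 in haplo 4th and 7.26, 8.19 and 7.33 in wild type. Its ratio was −1.37 (SE 0.36, limma adjusted p = 0.0364), the arrays did not overlap, and leaving out any 1 of the 6 arrays took the call away. MED26, a subunit of the Mediator complex that links activators to RNA polymerase, measured 9.31, 9.25 and 9.27 in haplo 4th and 10.65, 10.44 and 10.65 in wild type. It fell by 1.30 on the log2 scale (SE 0.24, limma adjusted p = 0.00382). Taf3, a subunit of the general factor TFIID that was named after its values were seen, had the tightest spread of these genes, at 8.84, 8.80 and 8.84 in haplo 4th and 9.74, 9.90 and 9.85 in wild type. Its ratio was −1.003 (SE 0.11, limma adjusted p = 5.36e-05), close to the step of the copy number. The Hedgehog pathway factor ci, at −0.25, and NfI, at 0.27, were not called.

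All 6 expressed signalling genes of chromosome 4 lay below wild type in every array, with a median of −0.81, and 3 fell. The receptor tyrosine kinase gene Eph measured 8.11, 7.97 and 7.99 in haplo 4th and 8.99, 9.04 and 9.15 in wild type. Eph fell by 1.04 (SE 0.25, limma adjusted p = 0.0243), and its ligand gene Ephrin had a ratio of −0.84 that did not pass (limma adjusted p = 0.0984). The semaphorin receptor gene PlexB fell by 0.78 (limma adjusted p = 0.0161) and the adaptor gene Crk by 0.72 (limma adjusted p = 0.00987). Each of these 3 calls was lost when at least 1 array was left out. Without the pof-mutant groups in the fit, all 6 passed, against 9.27% of all expressed genes called lower.

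Genes of synapse, membrane transport and muscle gave 2 falls among 9, with a median of −0.73. Ank, which encodes ankyrin, an anchor between membrane proteins and the cytoskeleton, measured 9.41, 9.13 and 9.47 in haplo 4th and 10.24, 10.42 and 10.17 in wild type. Its fall of 0.94 (SE 0.13, limma adjusted p = 0.000337) held in every fit that left out 1 array. The zinc transporter gene Zip102B fell by 0.74 (limma adjusted p = 0.0168), a call lost in 4 of the 6 fits without 1 array, and it did not follow the copy number. Zip102B stood at −0.81 over wild type with 3 copies in Dp(2;2)Cam3/+ triplo 4th, and the direct difference between 1 and 3 copies was 0.07 (limma adjusted p = 0.965). The muscle gene bt, the calcium pump gene PMCA and the release factor genes unc-13 and Cadps lay between −0.78 and −0.38 and were not called.

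Genes with a housekeeping or metabolic role gave 4 falls among 7 and the lowest median of these lists, −0.91. Slip1, whose product binds the Slowpoke potassium channel, measured 7.82, 7.66 and 7.87 in haplo 4th and 9.11, 9.25 and 9.04 in wild type. It fell by 1.35 (SE 0.22, limma adjusted p = 0.0014), to 39.3% of wild type. Gyf, an RNA-associated translational regulator, measured 9.81, 9.78 and 9.83 in haplo 4th and 10.75, 10.95 and 10.85 in wild type and fell by 1.05 (limma adjusted p = 0.00573). Rad23, a ubiquitin receptor of DNA repair, fell by 0.99, and Tdg, a thymine DNA glycosylase gene, by 0.53, the mildest of the 15 falls. The calls of Slip1 and Gyf held without any 1 array, and those of Rad23 and Tdg were lost in every such fit.

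Both translation genes of chromosome 4 described here were named after their values were seen. The initiation scaffold gene eIF4G1 measured 10.37, 10.36 and 10.47 in haplo 4th and 11.16, 11.22 and 11.26 in wild type, a fall of 0.81 (SE 0.12, limma adjusted p = 0.000525). The gene gw, which encodes the GW182 protein of microRNA silencing, fell by 0.77 (SE 0.14, limma adjusted p = 0.00349). The 95% intervals of eIF4G1 (−1.05 to −0.57) and gw (−1.06 to −0.48) held −1, and in the Df(2L)J-H background the ratios were −0.98 and −1.04. Both calls held without any 1 array, as did those of CG11076, which fell by 0.97, MED26 and Taf3.

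A few genes of chromosome 4 did not stand lower than wild type with 1 copy. Gat, the transporter of the neurotransmitter GABA in glia, measured 7.32, 7.73 and 7.97 in haplo 4th and 6.34, 6.41 and 5.99 in wild type. All haplo 4th arrays lay above all wild type arrays, but the ratio of 1.43 (SE 0.54) did not pass (limma adjusted p = 0.165). Groups with 2 copies differed widely for this gene. The 9 arrays of the 3 deficiency groups ran between 7.79 and 9.09, whereas the group labelled pof-mutant stood at −0.49 relative to wild type, and against the 9 deficiency arrays, a reference added after seeing the data, the ratio was −0.88. ATPsynbeta, the beta subunit of the mitochondrial ATP synthase, behaved likewise. Its arrays were 13.31, 13.53 and 13.57 in haplo 4th and 13.22, 13.27 and 13.01 in wild type, a ratio of 0.30 (limma adjusted p = 0.374), while the deficiency arrays ran between 13.81 and 14.45 and the group labelled pof-mutant stood at −0.23 relative to wild type. Against the deficiency arrays ATPsynbeta fell by 0.73 (limma adjusted p = 0.00104). The lipoprotein gene apolpp, at −0.03 (SE 0.47), and yellow-h, at 0.01 (SE 0.58), had ratios near 0 that were loosely measured. Against the deficiency arrays apolpp stood at −0.17 and yellow-h at −1.18 (limma adjusted p = 0.818 and 0.101). In the Df(2L)J-H background they stood at 0.22 and −1.33 (limma adjusted p = 0.888 and 0.257).

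Chromosome 4 stood apart from the other arms. The mean ratio was −0.08 on X, 0.03 on 2L, 0.04 on 2R, −0.01 on 3L and 0.02 on 3R. The X value was the same in each haplo 4th array (−0.08, −0.08 and −0.08), whereas the wild type arrays gave −0.01, −0.01 and 0.02. All arms have 2 copies in these females apart from chromosome 4.

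**Figure D2:**
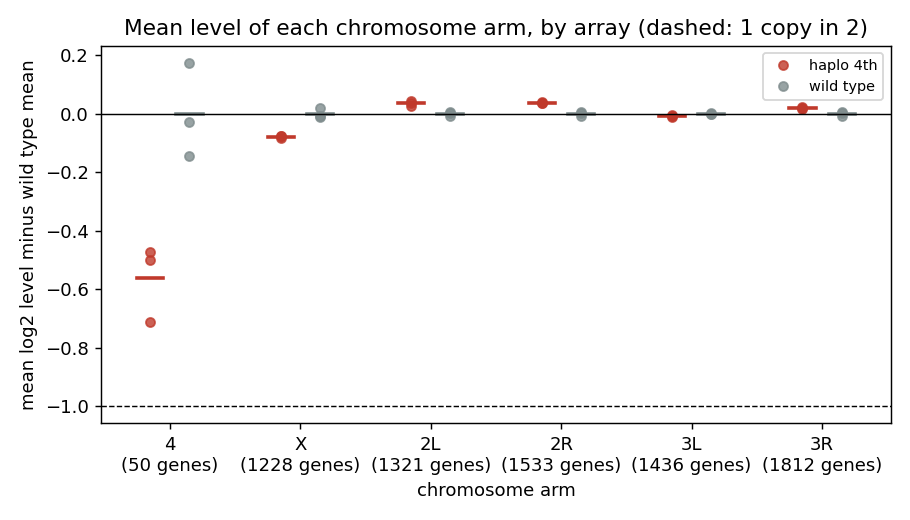
Mean log2 level of the expressed genes of each chromosome arm relative to the wild type mean (vertical axis), with 1 point per array, haplo 4th (red) left of wild type (grey) and bars for group means. The haplo 4th arrays lay between −0.71 and −0.47 on chromosome 4, and no other arm had a mean ratio further from 0 than −0.08.

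The loss of 1 chromosome 4 could be examined a second time, in the Df(2L)J-H background, without any shared array. In that contrast too the 1-copy flies had the compound parent and the 2-copy flies did not. A result seen in both contrasts therefore cannot tell copy number and parent apart. In the Df(2L)J-H background the 50 genes averaged −0.78 relative to Df(2L)J-H/+ (−0.90 to −0.65 over the 3 Df(2L)J-H/+ haplo 4th arrays). Of these, 18 were called lower, against 2.55% of all expressed genes. Of the 15 falls on chromosome 4, 11 were called here too. MED26, at −0.72 (limma adjusted p = 0.0927), Gyf, at −0.64 (limma adjusted p = 0.0701), Eph, at −0.69 (limma adjusted p = 0.143), and PlexB, at −0.57 (limma adjusted p = 0.0599), were the 4 that did not pass. The sign was the same in both contrasts for 42 of the 50 genes. Ratios of single genes were otherwise only weakly related between them (r = 0.15 over 50 genes, a description). The largest differences between the contrasts were those of Gat, at 1.43 in haplo 4th and −0.79 in the second contrast, and CG33521, at −0.38 and −2.01. A direct test of the difference between the contrasts called 0 genes of chromosome 4 (limma, 4 of 50 at an unadjusted p under 0.05), against 0.596% of all expressed genes.

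The step was wider against 3 copies. Haplo 4th minus Dp(2;2)Cam3/+ triplo 4th, groups that share the compound parent, gave a mean of −1.05 over the 50 genes. In place of 3 copies, 1 copy would give a 3-fold step, wider than the 2-fold step of 1 copy in 2. A mean of −1.05 is thus smaller in size than the full step of this comparison. In that comparison, added after seeing the data, 48 genes lay below 0 and 27 were called lower, against 1.15% of all expressed genes, and 0 were called higher. Against the 9 deficiency arrays the mean was −0.68, 49 genes lay below 0 and 25 were called lower, against 8.63% of all expressed genes. Slip1 was at −1.67 and Sox102F, a SoxD factor, at −2.11 relative to triplo 4th (limma adjusted p = 0.000119 and 0.000353).

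Outside chromosome 4, where copy number did not differ, more genes rose than fell in the fit used here. Of 7330 expressed genes, 180 were called higher and 89 lower, and over all expressed genes 2.44% were called higher and 3.85% either way. The ratio exceeded 1 for 76 of the rises and lay below −1 for 28 of the falls. Genes that fell were longer, with a median gene length of 6978 bases, than genes that rose, with 1742.5 bases, against 2719.5 bases over all expressed genes. When genes with a mean above 6 in either group were tested, 3.31% were called higher. The genes that this filter adds enter only through a high haplo 4th level, so this share is no support for an excess of rises. The counts of rises and falls depended on the fit. Without the pof-mutant groups, whose arrays vary widely, 12.7% of all expressed genes were called higher and 9.27% lower, and with the 6 arrays alone 14.3% and 15.2%. With the 6 arrays alone 267 of the 269 calls were among them, and without the pof-mutant groups all 269. In place of 284 calls on all chromosomes, 84, 69 and 70 were made without haplo 4th replicate 1, 2 or 3, and 77, 101 and 66 without wild type replicate 1, 2 or 3.

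The same 269 genes were refitted in 2 ways added after seeing the data. With the ovary score as a covariate, 1.64% of all expressed genes were called higher and 1.9% lower, 172 of the 269 kept their call and 0 turned sign. Against the 9 deficiency arrays, 6.49% were called higher and 8.63% lower, and 97 of the 269 kept their call while 60 turned sign. The excess of rises over falls therefore depended on the fit. Values of the other groups are therefore given beside many of those below.

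A digestive protease gene had the largest rise. Of 22 expressed Jonah and trypsin proteases, which the midgut secretes to break down protein, 3 rose, against 2.44% of all expressed genes. Of the 22, 18 lay above 0 and the median was 0.65. Jon65Aii measured 10.87, 11.09 and 10.87 in haplo 4th and 7.09, 6.86 and 6.46 in wild type. It rose by 4.14 (SE 0.73, limma adjusted p = 0.0032), or 17.6-fold, the largest rise of any called gene. The serine protease gene Ser6 measured 9.15, 8.86 and 9.27 in haplo 4th and 6.86, 6.44 and 6.90 in wild type, a rise of 2.36 (SE 0.34, limma adjusted p = 0.000525). The arrays of both genes were far apart, and both calls held without any 1 array. The trypsin gene iotaTry rose by 1.36 (limma adjusted p = 0.0216), with 0.80 in the second contrast (limma adjusted p = 0.193) and 0.44 against the deficiency arrays (limma adjusted p = 0.279). Jon25Bii had as large a ratio, 2.37, without passing (limma adjusted p = 0.197), since its arrays ran between 10.32 and 12.55 in haplo 4th and between 8.55 and 9.97 in wild type.

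Of 11 expressed maltases and amylases, 2 rose, against 2.44% of all expressed genes. Of the 11, 10 lay above 0 and the median was 0.82. The maltase gene Mal-A4 measured 10.997, 11.42 and 10.78 in haplo 4th and 8.47, 8.79 and 8.86 in wild type, a rise of 2.36 (SE 0.46, limma adjusted p = 0.00742). Its neighbour Mal-A3 measured 10.12, 10.47 and 10.05 in haplo 4th and 8.21, 7.78 and 8.38 in wild type, a rise of 2.09 (limma adjusted p = 0.0171) that no fit without 1 array kept. LManV, a lysosomal alpha-mannosidase gene, measured 11.05, 11.74 and 11.08 in haplo 4th and 8.94, 9.22 and 8.51 in wild type and rose by 2.40 (limma adjusted p = 0.0111), a call lost without haplo 4th replicate 2 or wild type replicate 3. Without the pof-mutant groups 7 of the 11 maltases and amylases passed, all higher, against 12.7% of all expressed genes called higher. Of 14 expressed lipases and lipid carriers of the gut, 0 were called, 13 lay above 0 and the sterol carrier gene Npc2d had the largest ratio, 1.84 (limma adjusted p = 0.084).

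These digestive genes were followed through the other groups. Jon65Aii in the second contrast measured 10.15, 11.44 and 11.37 in the Df(2L)J-H/+ haplo 4th arrays and 6.37, 8.01 and 8.44 in Df(2L)J-H/+, a rise of 3.38 (limma adjusted p = 0.00957). Ser6 rose there by 2.15 (limma adjusted p = 0.000738), Mal-A4 by 2.42 (limma adjusted p = 0.00361), Mal-A3 by 1.92 (limma adjusted p = 0.0184) and LManV by 1.80 (limma adjusted p = 0.0409). In that contrast 7 of the 22 proteases and 3 of the 11 maltases and amylases were called higher, against 1.92% of all expressed genes. In the deficiency groups with 2 copies, Mal-A4 stood between −0.25 and 0.24 over wild type and Ser6 between −0.43 and 0.13. LManV was between 0.70 and 1.23 there and Jon65Aii between 0.59 and 1.52.

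The triplo 4th flies, with the same compound parent, split these genes. Ser6 measured 8.98, 9.08 and 9.22 in Dp(2;2)Cam3/+ triplo 4th, the level of haplo 4th, and its direct difference was −0.00093 (SE 0.34). It rose by 2.36 over wild type in the 3-copy flies (limma adjusted p = 0.000326), in which 2.02% of all expressed genes were called higher and 1.29% lower. Mal-A4 measured 8.06, 9.94 and 10.12 in the same flies, between the other groups, and haplo 4th was 1.69 above them (SE 0.46), which did not pass (limma adjusted p = 0.0612). Jon65Aii measured 8.04, 10.54 and 10.47 in them and was called higher than in wild type (2.88, limma adjusted p = 0.0305), while its difference of 1.26 from haplo 4th did not pass (limma adjusted p = 0.586). Ser6 and Jon65Aii were thus called higher than wild type both with 1 and with 3 copies, in groups that had the compound parent.

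**Figure D3:**
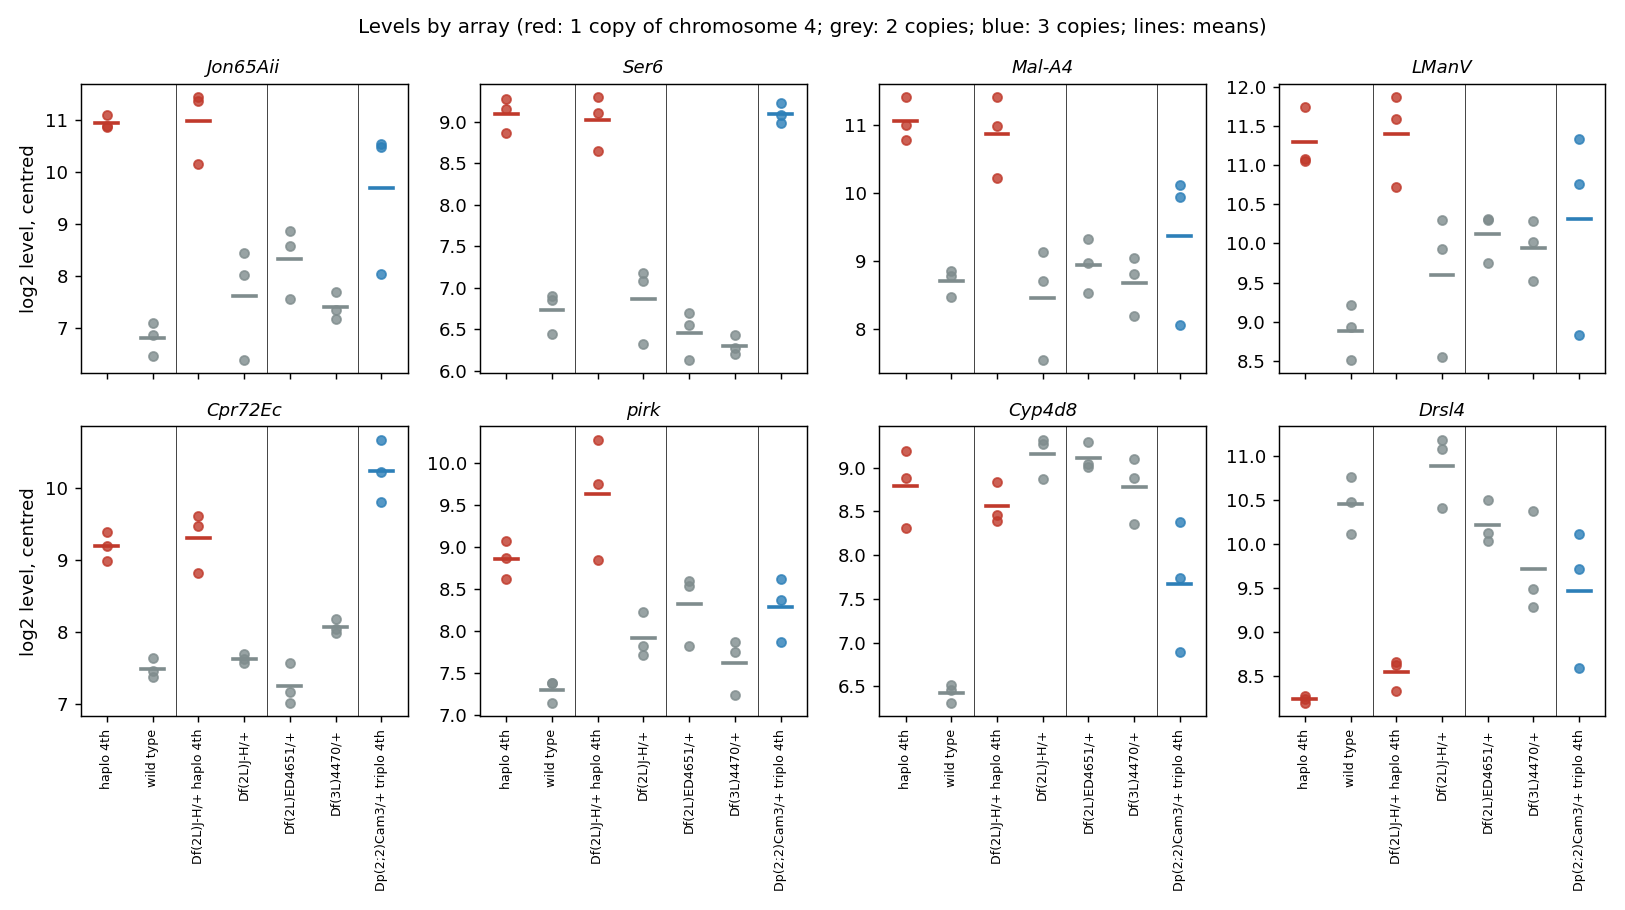
Log2 levels of 8 genes (vertical axis) in 7 groups, with 1 point per array and lines for means, for haplo 4th beside wild type, Df(2L)J-H/+ haplo 4th beside Df(2L)J-H/+, 2 further deficiency groups and Dp(2;2)Cam3/+ triplo 4th (red 1 copy of chromosome 4, grey 2, blue 3). Both 1-copy groups were high for Jon65Aii, Ser6 and Mal-A4, the 3-copy group was as high for Ser6, and Cyp4d8 was low in wild type and high in the 3 deficiency groups.

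The 19 expressed genes of peptidoglycan recognition and immune signalling had a median of 0.34, and 15 lay above 0. Of these 1 rose, against 2.44% of all expressed genes. That gene, pirk, which restrains the Imd pathway, measured 8.63, 8.88 and 9.07 in haplo 4th and 7.15, 7.38 and 7.39 in wild type. It rose by 1.55 (SE 0.35, limma adjusted p = 0.0182) and by 1.70 in the second contrast (limma adjusted p = 0.00647), and stood at 0.99 in triplo 4th over wild type (limma adjusted p = 0.143). Of 15 expressed antimicrobial peptide genes, 1 rose and 1 fell, against 2.44% and 1.41% of all expressed genes. The list median was 0.43, and 0.12 with the ovary score as a covariate.

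The antimicrobial genes that passed went apart. Listericin, which encodes a peptide active against Listeria, measured 7.88, 8.47 and 8.38 in haplo 4th and 7.22, 7.47 and 6.77 in wild type and rose by 1.09 (SE 0.28, limma adjusted p = 0.031), a call lost with the ovary score as a covariate. Drsl4, of the drosomycin family of antifungal peptides, measured 8.19, 8.27 and 8.24 in haplo 4th and 10.76, 10.12 and 10.49 in wild type. It fell by 2.22 (SE 0.49, limma adjusted p = 0.0169) and by 2.36 in the second contrast (limma adjusted p = 0.00737). Drosomycin itself, Drs, had a ratio of −0.05. The calls of pirk, Listericin and Drsl4 were each lost in at least 1 fit without an array, with the direction kept.

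All 5 expressed genes of hemocytes and clotting lay above wild type in every array, with a median of 1.28. Of these 2 rose, against 2.44% of all expressed genes. Hml, a clotting protein of plasmatocytes, measured 8.04, 8.53 and 8.64 in haplo 4th and 6.94, 7.41 and 7.04 in wild type and rose by 1.28 (limma adjusted p = 0.0227). NimC2, of the Nimrod family of phagocytosis receptors, measured 8.44, 7.49 and 7.49 in haplo 4th and 6.47, 5.38 and 6.44 in wild type and rose by 1.71 (limma adjusted p = 0.00627). The defining markers NimC1, eater and PPO1 were below the level of expression in wild type and not tested. The same list stood 0.84 to 1.11 above wild type in the 3 deficiency groups and had a median of −0.07 in the second contrast.

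Detoxification genes changed in both directions. Cytochrome P450 enzymes oxidise hormones, dietary toxins and insecticides. Of 57 expressed P450 genes, 6 rose and 4 fell, against 2.44% and 1.41% of all expressed genes. Without the pof-mutant groups 20 rose and 7 fell, against 12.7% and 9.27% of all expressed genes. Cyp4d8 measured 8.31, 8.88 and 9.19 in haplo 4th and 6.52, 6.46 and 6.31 in wild type, a rise of 2.36 (SE 0.32, limma adjusted p = 0.000337). Cyp4d8 was, with 2 copies in the deficiency groups, 2.35 to 2.73 above wild type, and in the second contrast it stood at −0.60 (limma adjusted p = 0.396). Cyp6a20 rose by 2.00 (limma adjusted p = 0.0169) and was 2.66 to 2.91 above wild type in the deficiency groups. Among the falls, Cyp4p2 measured 6.21, 5.80 and 5.53 in haplo 4th and 6.85, 8.54 and 7.20 in wild type, a fall of 1.69 (limma adjusted p = 0.00355), and it was −2.56 to −2.34 relative to wild type in the deficiency groups. The group labelled pof-mutant, also with 2 copies, stood at −0.47 for Cyp4d8, −0.54 for Cyp6a20 and −1.69 for Cyp4p2 relative to wild type.

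Another P450 gene did not follow that pattern. Cyp6a9 fell by 1.001 (limma adjusted p = 0.00111) and by 0.92 in the second contrast (limma adjusted p = 0.00146), and it was −0.47 to −0.04 in the deficiency groups. In triplo 4th it was −1.27 relative to wild type (limma adjusted p = 6.53e-05). Glutathione and UDP-glycosyl transferases make toxins soluble by conjugation. Of 46 expressed, 4 rose and 0 fell, against 2.44% and 1.41% of all expressed genes. Without the pof-mutant groups 13 rose and 1 fell, against 12.7% and 9.27% of all expressed genes. Ugt35A1 measured 8.07, 7.99 and 7.93 in haplo 4th and 6.70, 7.14 and 6.59 in wild type and rose by 1.19 (limma adjusted p = 0.00349), with 1.02 in the second contrast (limma adjusted p = 0.00718) and 1.15 in triplo 4th (limma adjusted p = 0.00296). Ugt35C1 rose by 1.49 (limma adjusted p = 0.00313), with 0.27 in the second contrast (limma adjusted p = 0.742), Ugt303B3 by 1.15 (limma adjusted p = 0.0212) and GstD9 by 1.08 (limma adjusted p = 0.021). The esterase gene alpha-Est5 rose by 1.498 (limma adjusted p = 0.001) and stood at 1.01 to 1.31 in the deficiency groups.

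Of 50 expressed genes of oxidative phosphorylation, which builds ATP in mitochondria, 0 were called. Yet 49 lay above 0, against 47.3% of all expressed genes, with a median of 0.49 against −0.02. The arrays of 47 did not overlap, against 48% of all expressed genes. The mean log2 level of the 50 genes ran between 12.33 and 12.41 in haplo 4th and between 11.82 and 12.08 in wild type. ND-B17.2, a subunit of complex I chosen after its values were seen, measured 12.02, 11.999 and 12.09 in haplo 4th and 11.19, 11.40 and 11.03 in wild type, a ratio of 0.83 (limma adjusted p = 0.0661). SdhD, of complex II, had a ratio of 0.88 (limma adjusted p = 0.0902).

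Without the pof-mutant groups 34 of the 50 passed, all higher, against 12.7% of all expressed genes called higher. The list was 0.69 to 0.78 above wild type in the deficiency groups and at −0.14 in the second contrast, and it was 0.25 with the ovary score as a covariate. Genes of the tricarboxylic acid cycle had a median of 0.37 and glycolysis 0.24, with 0 calls among 16 and 20 genes. Against the deficiency arrays 15 of the 20 glycolysis genes were called lower (median −0.62), beside 8.63% of all expressed genes. Mitochondrial ribosomal protein genes had a median of 0.19 with 60 of 69 above 0. Of the 69, mRpS31, by 0.82, and mRpL48, by 0.70, rose (limma adjusted p = 0.00623 and 0.01), against 2.44% of all expressed genes. Against the deficiency arrays mRpS31 stood at 0.17 and mRpL48 at 0.22, which did not pass (limma adjusted p = 0.431 and 0.229). Cytosolic ribosomal protein genes stayed near wild type, with a median of 0.02 and 0 calls among 34.

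Single genes of other roles passed with a narrow spread. Fatp3, a fatty acid transport protein gene named after its values were seen, measured 8.49, 8.62 and 8.51 in haplo 4th and 7.62, 7.49 and 7.56 in wild type. Fatp3 rose by 0.98 (SE 0.15, limma adjusted p = 0.000913), which held without any 1 array. It rose by 1.36 in the second contrast (limma adjusted p = 1.12e-05) and by 0.55 in triplo 4th over wild type (limma adjusted p = 0.0437), and ran between −0.07 and 0.25 in the deficiency groups. Genes of fatty acid and sterol metabolism had a median of −0.05 with 0 calls among 17.

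Of 34 expressed cuticle protein genes 1 rose, against 2.44% of all expressed genes, and the list median was 0.10. Cpr72Ec measured 9.18, 8.98 and 9.38 in haplo 4th and 7.45, 7.64 and 7.37 in wild type, a rise of 1.70 (SE 0.37, limma adjusted p = 0.0163), and rose by 1.67 in the second contrast (limma adjusted p = 0.0108). In triplo 4th its arrays stood at 10.67, 10.22 and 9.80, which was 2.74 above wild type (limma adjusted p = 0.00017), and the difference of haplo 4th from triplo 4th, −1.04, did not pass (limma adjusted p = 0.185).

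The ovary lists were lower without any call. All 17 expressed eggshell and follicle cell genes lay below 0 with a median of −2.21, and their mean log2 level ran between 5.69 and 6.80 in haplo 4th and between 7.47 and 10.44 in wild type. The vitelline membrane gene Vm26Aa measured 6.11, 11.70 and 10.13 in haplo 4th and 13.03, 13.41 and 13.76 in wild type, a ratio of −4.08 (limma adjusted p = 0.351). The chorion gene Cp36 measured 5.43, 5.53 and 5.38 in haplo 4th and 5.86, 5.502 and 12.96 in wild type, so that 1 wild type array set its ratio. Of 27 expressed germline genes 24 lay below 0, with a median of −0.69, and the maternal RNA localisation gene exu had −2.07 (limma adjusted p = 0.275). With the 6 arrays alone 8 of the 17 eggshell genes and 14 of the 27 germline genes were called lower, beside 15.2% of all expressed genes.

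These lists did not repeat. In the second contrast the eggshell median was 0.59 and the germline median 0.31, and the deficiency groups stood at −2.13 to −1.83 and −1.60 to −1.03 relative to wild type. The list of yolk proteins and yolk uptake, with 9 expressed members, gave 0 calls. The yolk protein genes Yp1, Yp2 and Yp3 stood at −0.73, −1.25 and −1.30 and the yolk receptor gene yl at −1.19, whereas Fbp1, Fbp2, Lsp2 and Apoltp stood between 0.87 and 1.19.

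Genes that fell outside chromosome 4 were led by CG32302, chosen after its values were seen, at 4.79, 4.74 and 4.30 in haplo 4th and 8.71, 7.73 and 8.78 in wild type, a fall of 3.79 (limma adjusted p = 1.46e-05). H, which encodes Hairless, the corepressor of Notch signalling, measured 6.90, 7.44 and 7.48 in haplo 4th and 8.74, 8.79 and 8.90 in wild type and fell by 1.54 (limma adjusted p = 0.0227). The neural factor gene pros fell by 1.27 (limma adjusted p = 0.0259). The CBP acetyltransferase gene nej fell by 1.31 (limma adjusted p = 0.028), and it was −1.58 to −1.49 in the deficiency groups. In the second contrast H stood at −0.46 and pros at −0.74 (limma adjusted p = 0.647 and 0.226). The calls of H, pros and nej were lost in fits without 1 array.

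Other named falls were also low in the deficiency groups. The phosphatase gene Alp8 fell by 1.73 (limma adjusted p = 0.0134), the transporter gene salt by 1.63 (limma adjusted p = 0.0168) and PIG-A, of glycolipid anchor synthesis, by 1.43 (limma adjusted p = 0.0185). The values of these 3 genes in the deficiency groups were −2.05 to −1.90, −1.81 to −1.16 and −1.45 to −1.16. Another 2 named rises were of the same kind. The cathepsin gene CtsL3 rose by 2.21 (limma adjusted p = 0.0225) and stood at 1.86 to 2.11 in the deficiency groups, and the tetraspanin gene Tsp42Ep rose by 2.61 (limma adjusted p = 0.0389) and stood at 2.08 to 2.54.

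Both contrasts of 1 copy against 2 copies called 28 genes outside chromosome 4 higher and 24 lower. The compound parent went with 1 copy in both, so these shared calls cannot be assigned to copy number or to parent. Of the 180 rises in haplo 4th, 135 lay above 0 in the second contrast and 1 was called lower there, and of the 89 falls, 63 lay below 0 and 1 was called higher. Over all expressed genes outside chromosome 4, 50.5% lay above 0 in the second contrast. The 52 genes called in both were 19.3% of the calls outside chromosome 4 in haplo 4th and 16.7% of those in the second contrast.

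**Figure D4:**
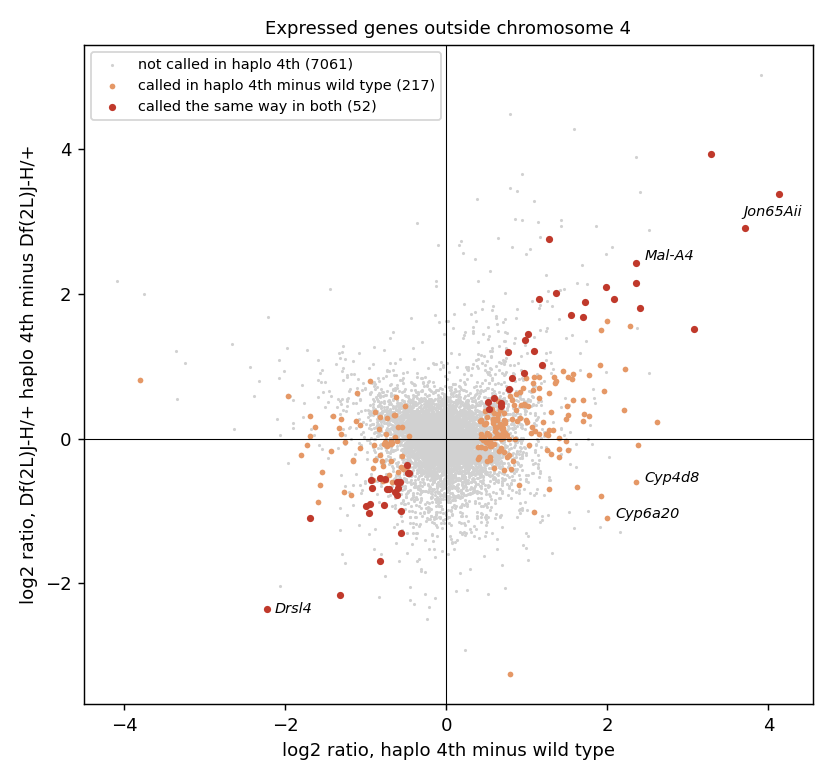
Log2 ratio of each expressed gene outside chromosome 4 in haplo 4th over wild type (horizontal axis) and in Df(2L)J-H/+ haplo 4th over Df(2L)J-H/+ (vertical axis), 2 contrasts without a shared array. The 52 genes called the same way in both (red) lay in the upper right and lower left, with Jon65Aii and Mal-A4 among the rises and Drsl4 among the falls, while Cyp4d8 and Cyp6a20 were high on the horizontal axis only.

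Smaller rises that appeared in both contrasts are given for 5 genes named after their values were seen. The tetraspanin gene Tsp42Eh measured 8.63, 8.70 and 8.31 in haplo 4th and 7.33, 7.85 and 7.39 in wild type, a rise of 1.02 (limma adjusted p = 0.0353), and rose by 1.45 in the second contrast (limma adjusted p = 0.00288). Arc2, of the capsid-like Arc family, measured 7.30, 7.45 and 7.17 in haplo 4th and 6.48, 6.46 and 6.68 in wild type, a rise of 0.77 (limma adjusted p = 0.031) beside 1.20 in the second contrast (limma adjusted p = 0.000946). In triplo 4th over wild type they stood at −0.51 and −0.25, which did not pass (limma adjusted p = 0.377 and 0.607). Haplo 4th lay above triplo 4th by 1.53 for Tsp42Eh (limma adjusted p = 0.00247) and by 1.02 for Arc2 (limma adjusted p = 0.00545). The serpin gene Spn42Da rose by 0.59, the sulfide quinone oxidoreductase gene Sqor by 0.52 and the helicase gene Dbp80 by 0.53, with 0.56, 0.51 and 0.41 in the second contrast.

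Among the falls in both contrasts, 3 genes were named after their values were seen. The cell polarity kinase gene aPKC measured 7.51, 7.20 and 7.46 in haplo 4th and 8.26, 8.71 and 8.05 in wild type, a fall of 0.95 (limma adjusted p = 0.0401), and fell by 1.03 in the second contrast (limma adjusted p = 0.0227). Its arrays in triplo 4th, at 7.42, 7.04 and 6.86, were as low as with 1 copy. The Shank scaffold gene Prosap fell by 0.56 in haplo 4th and by 1.30 in the second contrast (limma adjusted p = 0.0216 and 9.86e-06). The mRNA capping enzyme gene mRNA-cap fell by 0.48 (SE 0.09, limma adjusted p = 0.00402), a call that held without any 1 array, and by 0.37 in the second contrast (limma adjusted p = 0.0175).

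Haplo 4th and triplo 4th, with a shared parent stock, were also compared over all genes. Outside chromosome 4, 71 genes were higher and 58 lower in haplo 4th than in triplo 4th. Over all expressed genes 0.962% were called higher and 1.15% lower. The triplo 4th females also carried the Dp(2;2)Cam3 duplication, so genes of that part of 2L differed in their own copy number in this comparison. Besides Tsp42Eh and Arc2, the named genes called higher in haplo 4th included Cyp6a20, by 1.73 (limma adjusted p = 0.0419), Ugt303B3, by 1.25 (limma adjusted p = 0.0121), the phosphatase gene Alp5, by 1.46 (limma adjusted p = 0.0386), and PIG-Wb, by 0.95 (limma adjusted p = 0.0474). The triplo 4th arrays had ovary scores between 6.69 and 10.2, the widest of the groups set beside haplo 4th.

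**Figure D5:**
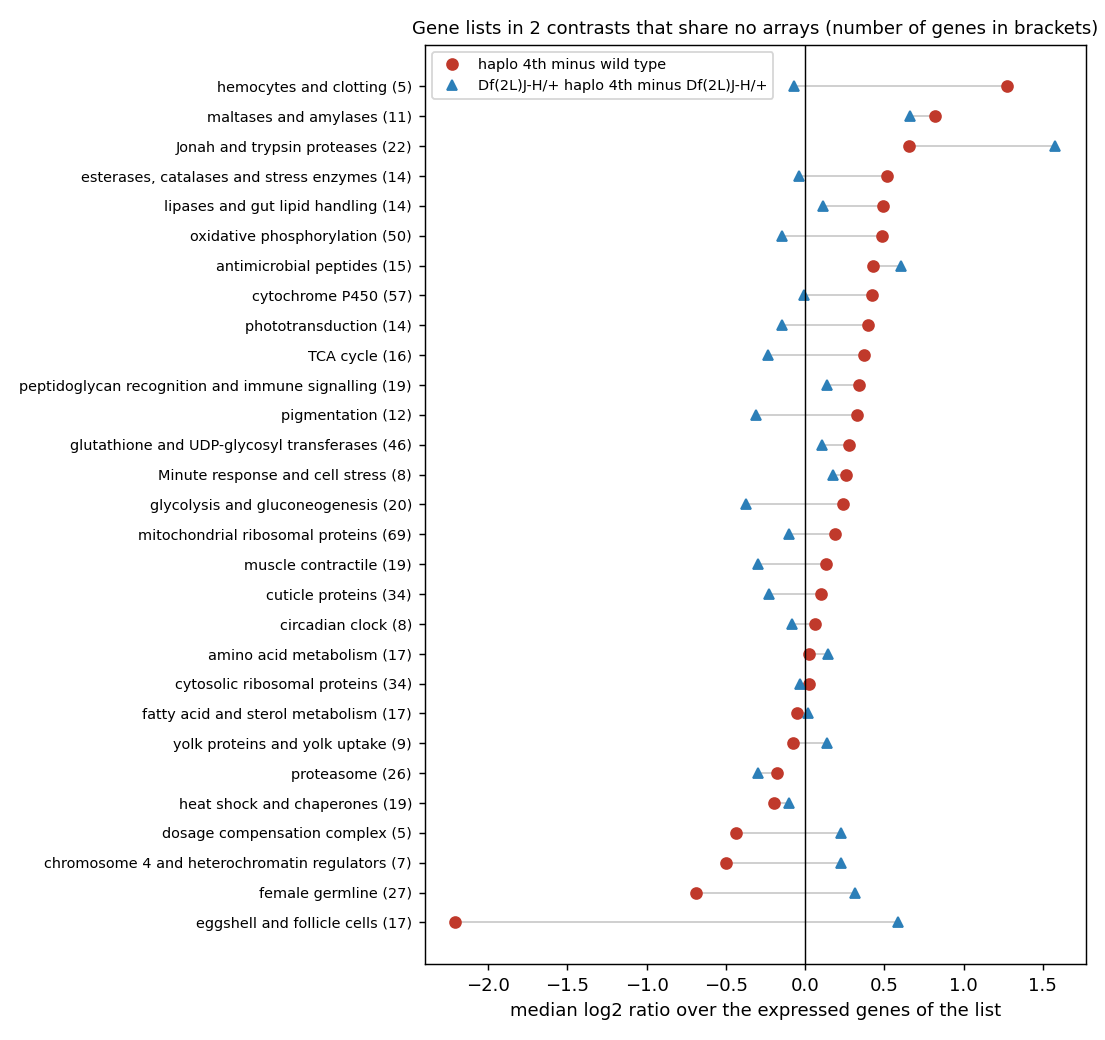
Median log2 ratio over the expressed genes of each gene list (horizontal axis, number of genes in brackets) in haplo 4th over wild type (circles) and in Df(2L)J-H/+ haplo 4th over Df(2L)J-H/+ (triangles). Maltases and Jonah proteases had positive medians in both contrasts, and eggshell and germline lists were at −2.21 and −0.69 in haplo 4th and above 0 in the second contrast.

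Calls were spread over the large arms. X held 23 falls and 20 rises among 1228 genes, whereas 2L held 9 and 38 among 1321, 2R 18 and 41 among 1533, 3L 19 and 36 among 1436, and 3R 20 and 45 among 1812. The share called lower was 1.87% on X and 0.681% to 1.32% on the autosomal arms. Regulators of chromosome 4 and heterochromatin, with 7 expressed genes, gave 0 calls and a median of −0.50, and the dosage compensation complex, with 5, gave 0 calls and −0.44. Both medians were above 0 in the second contrast (0.22 and 0.23) and near 0 with the ovary score as a covariate (0.03 and −0.11). Pof itself measured 7.07, 7.06 and 6.93 in haplo 4th and 7.69, 7.44 and 7.91 in wild type, a ratio of −0.66 that did not pass (limma adjusted p = 0.474). The body colour gene y, mutant in the wild type strain, had a ratio of 0.28 (limma adjusted p = 0.757).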

How the data were processed

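RNA of 27 samples was hybridised to Affymetrix arrays. The deposited table gave a log2 value for each of 18952 probe sets on each array, with 0 missing, and the authors obtained these values with RMA (robust multi-array analysis). Whether all arrays were normalised together, and any scan batch, is not given in the sources used here.

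A single gene symbol was annotated for 13647 probe sets, several for 402 and no symbol for 4903. Symbols of 13550 probe sets were found in the RefSeq table of Release 6 plus ISO1 MT, which supplied names, arms and gene order, and those of 97 were not. The probe set with the highest mean stood for a gene, which gave 11899 genes. No probe set carried RpS3A or w alone, and both were not analysed here. Genes with a wild type mean above 6 were kept, after the study's methods, and every array was shifted by a constant to bring its mean over them to the wild type mean. Single genes were tested with limma 3.58.1 in R 4.3.3 (1 mean per group over 27 arrays, Benjamini-Hochberg adjusted p under 0.05). P-values measure the spread between biological replicates as labelled. On data simulated for haplo 4th minus wild type (7380 genes), 20%, 56%, 94% and 96% of genes changed by 0.5, 1, 2 and 3 were recovered, and 3.62% of calls were false. The simulated noise was independent between genes and had 1 spread per gene over all groups. In the data the pof-mutant arrays vary widely, so these shares describe the simulated setting only.

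Members and gene lists were chosen with earlier results of these data known. Named genes were Pof and y, the 8 lowest and 6 highest ratios on chromosome 4, the 15 largest rises and 15 largest falls elsewhere among called genes with a name and without overlap of arrays, up to 4 called members of each list, and the 6 largest rises among genes at a wild type mean of 6 or less. Genes beyond that rule are marked in the text as named after their values were seen, or stand beside a named gene for comparison. The comparisons with triplo 4th and with the deficiency groups and the ovary score were added after seeing the data. Alternatives were other centring, expression filters, sets of arrays, variance priors, probe set rules, a replicate block and leaving out each array. A change common to all genes is removed by this centring.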

Additional observations from a re-analysis of the deposited data

Results flagged for a closer look

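For 6 named genes the response to loss of 1 chromosome 4 differed between the backgrounds by a direct test of the difference (limma, adjusted p under 0.05 over all expressed genes). The difference, haplo 4th minus wild type less Df(2L)J-H/+ haplo 4th minus Df(2L)J-H/+, was 3.10 for Cyp6a20 (adjusted p = 0.0349). Its arrays ran between 8.78 and 9.03 in haplo 4th against 6.59 and 7.11 in wild type, and between 8.47 and 8.89 in the Df(2L)J-H/+ haplo 4th arrays, against 9.73 and 9.82 in Df(2L)J-H/+. For the other P450 gene, Cyp4d8, the difference was 2.96 (adjusted p = 0.00505), and its Df(2L)J-H/+ haplo 4th arrays ran between 8.39 and 8.83 against 8.87 and 9.32 in Df(2L)J-H/+. CG43133 differed by 2.47 (adjusted p = 0.021), with arrays between 8.18 and 9.24 in haplo 4th against 6.23 and 6.28 in wild type, and between 8.34 and 9.18 in the Df(2L)J-H/+ haplo 4th arrays, against 8.48 and 9.08 in Df(2L)J-H/+. Of these 3 genes, the second contrast called none.

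The clotting gene Hml differed by 1.97 (adjusted p = 0.0419), with 6.66 to 7.51 in the Df(2L)J-H/+ haplo 4th arrays, against 7.53 to 7.88 in Df(2L)J-H/+. Among genes that fell in haplo 4th, the difference was −4.60 for CG32302 (adjusted p = 0.000184), with 7.38 to 8.31 in the Df(2L)J-H/+ haplo 4th arrays, against 6.72 to 7.67 in Df(2L)J-H/+. It was −0.94 for tyn, which encodes a zona pellucida domain protein (adjusted p = 0.0394), with 5.25 to 5.70 in the Df(2L)J-H/+ haplo 4th arrays, against 5.47 to 5.79 in Df(2L)J-H/+. Wild type and Df(2L)J-H/+, the controls of the 2 contrasts, differ in cross, so which of the groups sets these differences cannot be told apart from them alone.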

How the results depend on the processing

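The mean of chromosome 4 lay between −0.63 and −0.47 when 1 array was left out and at −0.75 with the ovary score as a covariate. The count of chromosome 4 genes called lower was 15 in the report, 27 with the 6 arrays only and without the pof-mutant groups, 25 with the 9 deficiency arrays as reference, 23 with the ovary score and 8 to 11 with 1 array left out. The count of chromosome 4 genes called higher, 0 in the report, was 1 (Gat) with the 6 arrays only and without the pof-mutant groups.

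Genes outside chromosome 4 called higher numbered 180. They were 1052 with the 6 arrays only, 933 without the pof-mutant groups, 479 with the deficiency reference, 303 without a filter on the level, 99 with a wild type mean above 8 and 33 to 69 with 1 array left out. Genes outside chromosome 4 called lower numbered 89, and they were 1092 with the 6 arrays only, 657 without the pof-mutant groups, 612 with the deficiency reference, 48 with a wild type mean above 8 and 19 to 26 with 1 array left out. Genes whose response to loss of 1 chromosome 4 differs between the 2 backgrounds numbered 44. They were 70 when arrays were centred on the median, 8 among genes whose wild type mean exceeded 8, 111 without a filter on the level, 85 with a mean above 6 in either group, 1146 without the pof-mutant groups and 3 to 21 with 1 array left out.

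With the deficiency arrays as reference 19 of 108 named genes turned sign. Of these 11 were called with neither reference, and the other 8 went to −0.73 for ATPsynbeta, 0.25 for Alp8, 0.76 for Cyp4p2, 0.24 for nej, 0.0695 for dlt, −0.22 for Cyp4d8, −0.78 for Cyp6a20 and −0.0595 for Cyp309a2. Over 108 named genes and 19 alternatives, 1645 of 1977 values kept call and direction, 277 lost the call and 47 gained it. Same-numbered arrays did not deviate together (r of 0.12, −0.31 and −0.33 for replicates 1, 2 and 3), and no pairing was used in the report. With 3 arrays per group this check cannot decide whether the numbers pair the samples. With the replicate block 155 genes outside chromosome 4 were called higher and 79 lower, 15 on chromosome 4, and 16 differed between the backgrounds. The 3 arrays per group limit the precision, and the causes of these shifts were not tested.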

Other observations

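Genes at a wild type mean of 6 or less were not tested in the report. Among them 211 had a haplo 4th mean above 6, and since they entered only through the group in which they are high, their ratios are given as a description. When genes above 6 in either group were tested, 3.31% of them were called higher. Their wild type levels lie below the level taken as expressed, so the ratios have no firm base, and they are no support for the counts of any list. The maltase gene Mal-B1 measured 10.27, 10.36 and 10.72 in haplo 4th and 5.34, 5.68 and 5.31 in wild type, a ratio of 5.01. Ser12, a serine protease gene, measured 8.71, 8.95 and 9.39 in haplo 4th and 4.17, 4.19 and 4.37 in wild type, a ratio of 4.77. The P450 gene Cyp4d1 had a ratio of 3.59 and Cyp6a17 one of 3.58. CG1304 stood at 4.18 and CG4757 at 3.91.

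Proteasome genes, which degrade tagged proteins, had a median of −0.18 with 2 of 26 above 0 and 0 calls. With the deficiency arrays as reference 22 of the 26 were called lower (median −0.53), beside 8.63% of all expressed genes. Chaperone genes had a median of −0.19 with 0 calls among 19. Genes of the Minute response and cell stress had 0.26 with 0 calls among 8, and metallothionein genes −0.39 with 0 calls among 4. Muscle contractile genes stood at 0.13, phototransduction at 0.40, the circadian clock at 0.06, pigmentation at 0.33 and amino acid metabolism at 0.02, all with 0 calls.

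Among rises without a gene name, CG6283 measured 8.79, 9.81 and 8.98 in haplo 4th and 6.24, 6.07 and 6.05 in wild type (3.07, limma adjusted p = 1.46e-05), and it was 3.17 above wild type in triplo 4th. CG6295 rose by 3.71 (limma adjusted p = 0.0111) and stood at 3.25 in triplo 4th. CG14499 rose by 3.29 (limma adjusted p = 0.0227) and by 3.93 in the second contrast (limma adjusted p = 0.00506), and it stood at 1.10 in triplo 4th (limma adjusted p = 0.561) and at −1.16 to −0.79 in the deficiency groups. CG32054 rose by 1.99 in haplo 4th and by 2.09 in the second contrast (limma adjusted p = 5.97e-05 and 1.32e-05). These 4 genes were named after their values were seen.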
